A study of Caenorhabditis elegans with 2 samples.

Results

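The histone genes of *Caenorhabditis elegans* are the 72 protein-coding genes whose symbol starts with his-, taken from the 19973 protein-coding genes of the nuclear chromosomes on genome build ce11; the other 19901 served as the comparison. They were examined in a chromatin immunoprecipitation and sequencing (ChIP-seq) study of LIN-39, a Hox homeodomain transcription factor of the mid-body. The material was whole L4 larvae of strain OP18, in which the unc-119(ed3) III mutation is combined with the wgIs18 insertion that carries *lin-39* joined to enhanced green fluorescent protein (eGFP). Per the labels male and female animals were pooled. The labels name eGFP-lin-39 as the target in one place and lin-39 as the antibody in another. There were 2 biological replicates of 1 group and no second condition. The animals were taken whole, so cells that make LIN-39 were a part of a mixture of all tissues. Each replicate list and the list called on both replicates together (the pooled list) held 30000 regions of 344 to 350 bp, by the deposited name peaks and background, and the authors' thresholded list held 163 peaks. Read depth could not be read from any of these lists.

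Histones package DNA into nucleosomes. The core histones H2A, H2B, H3 and H4 form the spool that DNA winds around, and the linker histone H1 binds between spools. In animals most core histone genes are replication-dependent, lie in clusters of near-identical copies, are used in S phase, and make messages that end in a stem-loop and not in a poly(A) tail. Variant genes such as those for H3.3 are expressed outside S phase as well and have messages of the usual kind. In *C. elegans* the core genes often lie head to head in pairs, so that both genes of a pair share the spacer between them.

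A gene was counted as having a promoter region when the summit of a region lay from 1000 bp upstream to 200 bp downstream of its annotated 5' end, a window of 1201 bp. Histone genes had a promoter region less often than other protein-coding genes in the pooled list and in both replicate lists. Most of the histone windows were made of sequence that occurs more than once in the genome, and no region lay in the 40 windows with the most repeated sequence. Among histone genes with windows of mostly unique sequence, the share in the pooled list and in replicate 1 was close to that of other genes, and in replicate 2 it was lower. Of the 9 pooled regions at histone genes 5 were above the middle of the list by signal, as were 3411 of 6759 at other genes. These 5 lay at the H4 gene *his-37*, at the H3.3-type genes *his-69*, *his-71* and *his-72*, and at *his-42*, an H3 gene at the edge of the chromosome II cluster.

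The sequences at 4 of the 5 regions of highest rank, read from the ce11 reference genome, are shown here with a spacer of the repeated kind for contrast. The regions are 201 bp around the summit on the gene's strand, except that of *his-37*, which stops at the base before its annotated 5' end. They lie at chrV:9546943-9547104 (plus strand, *his-37*), chrII:13828922-13829122 (minus, *his-42*), chrIII:12369339-12369539 (minus, *his-72*) and chrIII:4059254-4059454 (minus, *his-69*) on ce11. The spacer between the H4 gene *his-50* and the H3 gene *his-49* lies at chrV:8847705-8847942 (plus), is 238 bp long, and recurs base for base at chrV:8889800-8890037 between *his-28* and *his-27*. Capitals mark TATAAA, the core of the TATA box, and TGATNNAT, the core of the composite site of Hox and PBC proteins, on either strand.
his-37: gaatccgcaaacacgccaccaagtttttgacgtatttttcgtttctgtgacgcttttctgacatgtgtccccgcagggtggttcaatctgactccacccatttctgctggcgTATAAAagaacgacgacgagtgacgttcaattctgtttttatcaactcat
his-42: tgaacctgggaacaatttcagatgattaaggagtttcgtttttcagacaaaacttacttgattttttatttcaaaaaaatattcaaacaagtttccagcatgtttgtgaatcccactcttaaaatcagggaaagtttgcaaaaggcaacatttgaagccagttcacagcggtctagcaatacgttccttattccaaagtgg
his-72: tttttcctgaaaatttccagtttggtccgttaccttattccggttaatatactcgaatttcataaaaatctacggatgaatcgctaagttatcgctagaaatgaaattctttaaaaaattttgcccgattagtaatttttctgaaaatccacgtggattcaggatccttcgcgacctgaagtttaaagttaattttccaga
his-69: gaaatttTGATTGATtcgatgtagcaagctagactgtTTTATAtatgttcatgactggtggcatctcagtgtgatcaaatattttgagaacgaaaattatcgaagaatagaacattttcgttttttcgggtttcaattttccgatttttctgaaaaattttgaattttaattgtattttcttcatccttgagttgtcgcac
his-50 his-49 spacer: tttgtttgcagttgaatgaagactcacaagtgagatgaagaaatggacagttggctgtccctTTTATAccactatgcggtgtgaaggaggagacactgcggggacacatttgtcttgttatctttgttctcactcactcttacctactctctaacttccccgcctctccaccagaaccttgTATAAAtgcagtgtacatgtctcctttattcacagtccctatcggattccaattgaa

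In the pooled list 9 of 72 histone genes had a promoter region, 12.5% (95% Wilson interval 6.72 to 22.1%), against 6725 of 19901 other genes, 33.8%. In replicate 1 it was 8 of 72 histone genes, 11.1% (5.74 to 20.4%), against 33.1% of other genes, and in replicate 2 it was 6 of 72, 8.33% (3.88 to 17.01%), against 33.8%. Over the replicates the share was 9.72 ± 1.96% for histone genes and 33.5 ± 0.480% for other genes (SD, n = 2), so the difference was larger than the spread between the replicates. The Wilson intervals cover counting error over genes, and genes that share a spacer are not independent. Where overlapping windows were merged, 8 of 37 stretches at histone genes held a pooled region, 21.6%, against 36.4% of 16273 stretches at other genes. Per length, these stretches held 13.9 pooled regions per 100 kb at histone genes and 31.5 at other genes, with 12.3 at histone genes and 31.1 at other genes in replicate 1 and 10.8 at histone genes and 31.4 at other genes in replicate 2.

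The 9 genes with a pooled region shared 9 distinct regions, since 1 region lay in the windows of both *his-61* and *his-62* and *his-62* had a second one. No region was found at 58 of the 72 genes in any of the 3 full lists, and 14 genes, 19.4%, had one in at least 1 list, against 53.8% of other genes. The same region, with summits within 200 bp, was in both replicate lists at 2 histone genes, *his-42* and *his-69*, which is 2.78% against 10.7% of other genes. A region in either replicate list was present at 12 histone genes, 16.7%, against 51.4% of other genes. Of these genes, the same region was in both for 2 of 12 histone genes, 16.7% (4.70 to 44.8%), and for 20.7% of 10236 other genes. A thresholded peak lay at 1 histone gene, 1.39% (0.246 to 7.46%), against 0.447% of other genes, and the interval includes the share of other genes. Among the 1000 pooled regions of highest signal, 1 histone gene had a promoter region, 1.39%, against 1.7% of other genes, and among the 5000 highest 3 had one, 4.17% (1.43 to 11.5%), against 6.78%. At the 1000 highest a lower share was not detectable with 72 genes, since even 0 of 72 has a Wilson interval up to 5.07%, and at the 5000 highest the interval includes the share of other genes.

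**Figure D1:**
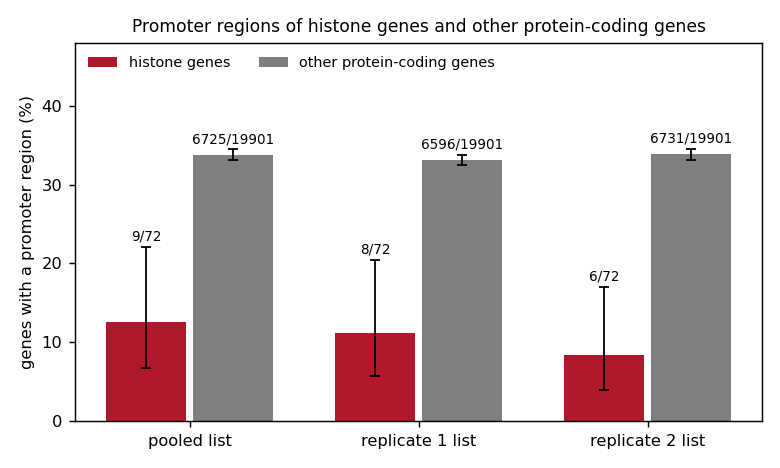
Share of genes with a promoter region (y axis, %) in the pooled list and in each replicate list (x axis), for histone genes (red) and other protein-coding genes (grey). Bars start at 0, error bars are 95% Wilson intervals and the labels give genes with a region over all genes; the red bars reach 12.5, 11.1 and 8.33%, and the grey bars stand between 33.1 and 33.8%.

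Read positions in copied sequence are ambiguous, so each window was scored by the share of its 50-base words that occur once in the genome on either strand. The median was 25.3% for histone windows and 100% for other windows, and 93.5% for the genome as a whole. In 20 histone windows no word was unique, and 53 of 72 had 90% or less, against 10.2% of other windows. Of the 19 histone windows over 90% unique, 7 held a pooled region, 36.8% (95% Wilson interval 19.1 to 58.96%), against 36.0% of 17879 other windows. In replicate 1 it was again 7 of 19, 36.8%, against 35.2%, but in replicate 2 it was 3 of 19, 15.8%, against 36.2%. Over the replicates these shares were 26.3 ± 14.9% for histone genes and 35.7 ± 0.645% for other genes (SD, n = 2), so this difference was smaller than the spread between the replicates.

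Of the 53 histone windows at 90% or less, 2 held a pooled region, those of *his-4* and *his-42*, which is 3.77% against 14.3% of 2022 other windows. The histone windows of this group lay lower within it than the others did, 40 of them at 50% or less. In those 40 no list had a region, a pooled share of 0% with a Wilson interval up to 8.76%, and among other genes with windows of that kind 7 of 459 had a pooled one, 1.53%. No window without a unique word held a pooled region, neither at the 20 histone genes nor at 165 other genes, 0.0%. Of all 30000 pooled regions, 98.7% were themselves over 90% unique, as were 8 of the 9 at histone genes. The sources used here do not say how reads with several equal matches were handled in the alignment, and its part in the low share was not tested.

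**Figure D2:**
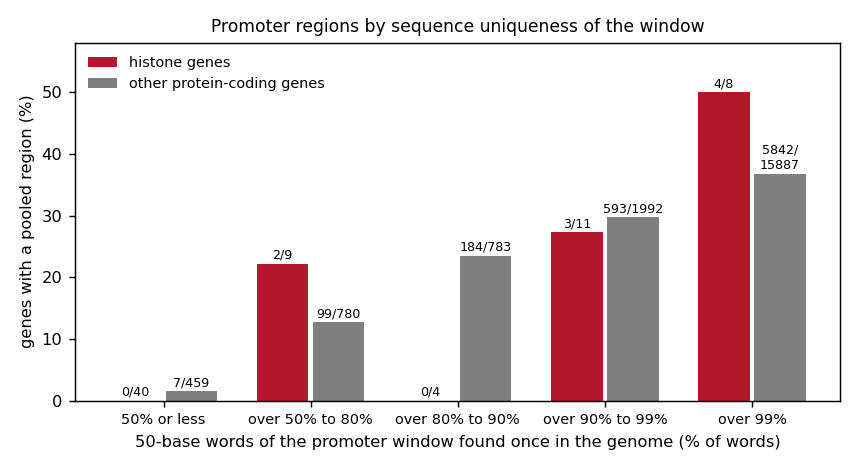
Share of genes with a pooled promoter region (y axis, %) by the percentage of 50-base words of the window found once in the genome (x axis, 5 bins), for histone genes (red) and other protein-coding genes (grey), with counts above the bars. Histone genes have 0 of 40 in the lowest bin and 4 of 8 in the highest, and other genes have 1.53% in the lowest bin and 36.8% in the highest.

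Histone windows also differed from others in what they contain. Coding sequence made up a median of 47.5% of a histone window and 15.2% of other windows, and the median GC content was 45.3% in histone windows and 34.9% in other windows. With over 40% coding sequence, 4 of 62 histone windows held a pooled region, 6.45%, against 30.0% of 3558 other windows. With over 40% coding and over 90% unique sequence it was 3 of 12 histone windows, 25%, against 31.2% of 3322 other windows. That count depended on the replicate, with 4 of 12 histone windows, 33.3%, against 32.3% of other windows in replicate 1, and 0 of 12 against 31.2% in replicate 2. The annotated gene record began at the start codon for 65 of 72 histone genes and for 23.3% of other genes, so for most histone genes the annotation held no 5' UTR and the position used here was the start codon.

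By class, 17 genes encode H2A, 16 H2B, 20 H3, 16 H4 and 1 the linker histone H1, and *his-39* and *his-73*, short records of 204 and 141 bp, were left without a class. Pooled regions lay at 2 H2A genes (*his-61* and *his-68*), 2 H2B genes (*his-4* and *his-62*), 4 H3 genes (*his-42*, *his-69*, *his-71* and *his-72*) and 1 H4 gene (*his-37*). Of the 5 H3.3-type genes, 3 had a pooled region, as had 3 in replicate 1 and 2 in replicate 2, and of the other 15 H3 genes 1 had a pooled region, 2 had one in replicate 1 and 1 in replicate 2. These counts of few genes stand beside the pooled share of 33.8% of all other genes and 36.0% of those with unique windows. The H3.3-type windows had a median of 100% unique words and those of the other H3 genes 38.6%. The only H1 gene among the members, *his-24* on chromosome X, had a wholly unique window and no promoter region, and its nearest summits lay 1212 to 1221 bp from its 5' end in the 3 full lists.

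A stem-loop of the histone message type was searched for within 100 bp after the stop codon, as a 6-bp inverted repeat that begins with GG around a loop of 4 bases, a split chosen after the positions of the regions were seen. It was found at 57 of 72 histone genes and at 12 other genes, 0.0603%. Of the 57 genes with the stem-loop 4 had a pooled region, 7.02%, and of the 15 without it 5 had, 33.3%, against 33.8% of other genes without one. In replicate 1 it was 4 of the 15 without it, 26.7%, against 33.1% of such other genes, and in replicate 2 it was 3 of the 15, 20%, against 33.8%. With windows over 90% unique, the pooled counts were 2 of 9 with the stem-loop and 5 of 10 without it, against 36.0% of other unique windows without it. These counts differed between the replicates, with 3 of 9 and 4 of 10 in replicate 1, against 35.2% of other such windows, and 0 of 9 and 3 of 10 in replicate 2, against 36.2%. The stem-loop and the uniqueness of the window largely went together in these genes, and their parts in the counts cannot be told apart.

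**Figure D3:**
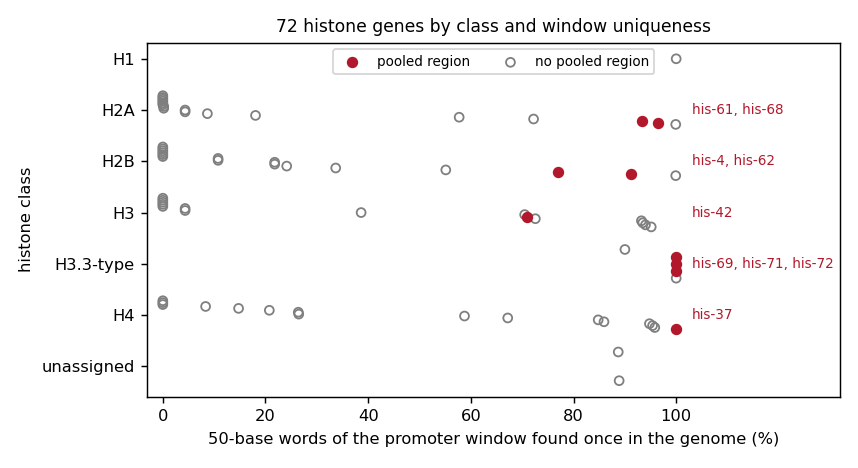
Each of the 72 histone genes by class (rows, with the H3.3-type genes apart from the other H3 genes) and by the percentage of 50-base words of its promoter window found once in the genome (x axis). Filled red points are genes with a pooled promoter region, named at the right, and open points are genes without; the filled points lie between 70.9 and 100%.

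The highest histone region was at *his-37*, an H4 gene of 2 exons without the stem-loop, at chrV:9547105-9547607. Its pooled region spans 9546871 to 9547214 on V, ranked 60 with 3.05 times the median signal of the list (relative signal), and its summit lay 62 bp upstream of the 5' end. It was the only histone region that passed the authors' threshold, with a deposited score of 0.797. In replicate 2 it ranked 23, with a relative signal of 4.27, and its summit was 20 bp from the pooled one. Replicate 1 had no region there, and its nearest summit was 1012 bp from the 5' end. The region thus stood among the highest of 1 replicate and was not listed in the other. The printed sequence holds TATAAA in its 3' part and no TGATNNAT.

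The H3.3-type gene *his-72* is transcribed from the minus strand of III with 3 exons. Its pooled region, from 12369267 to 12369610 and 389 bp upstream, ranked 1911 with a relative signal of 1.52. Replicate 1 listed it at rank 616 with 1.86, and replicate 2 had no region in the window. The reverse was seen at *his-71*, the H3.3-type gene on X. Its pooled region, from 7982577 to 7982920 and 679 bp upstream, ranked 7655 with 1.19, replicate 2 listed it at rank 2557 with 1.502, and replicate 1 had none. At each of these genes the signal was in the upper part of the list of a single replicate, and it was not the same replicate for both.

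The regions found in both replicates were those of *his-42* and *his-69*. The *his-42* region on II, from 13828850 to 13829193, lay 325 bp upstream of the gene and outside the cluster that the gene ends. It ranked 1884 in the pooled list with a relative signal of 1.52, 10534 in replicate 1 with 1.11 and 2125 in replicate 2 with 1.56. Its mean signal percentile over the replicates was 78.9 ± 19.8 (SD, n = 2), where 50 is the middle of a list. The window of *his-42* was 70.9% unique, more than that of any other gene of its cluster.

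At *his-69*, an H3.3-type gene of 1 exon, the pooled region ran from 4059182 to 4059525 on III, between *his-69* and its H3.3-type neighbour *his-70* on the same strand. It lay 611 bp upstream of *his-69* and ranked 6367 with a relative signal of 1.23. The ranks were 6990 in replicate 1 and 9957 in replicate 2, with relative signals of 1.23 and 1.13, and the mean percentile was 71.8 ± 6.99 (SD, n = 2). Summits in the replicates were 133 bp apart. The gene *his-70* itself had no promoter region in any list, and *his-74*, the remaining H3.3-type gene, had one in replicate 1 alone, at rank 27749. The *his-69* sequence was the only printed one with TGATNNAT, and it also holds TATAAA read from the other strand.

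The remaining pooled regions were low in the list. The region at *his-68*, an H2A gene on I, ranked 22930, the region in the spacer of *his-61* and *his-62* on IV 24010, the second region of *his-62* 28187 and the region at *his-4*, an H2B gene on V, 29153. The last was also in replicate 2, at rank 27422, and the other 3 were in neither replicate list. Regions in 1 replicate list alone lay at *his-31* and *his-32* (1 shared region), *his-41*, *his-61* and *his-74* in replicate 1 and at *his-1* in replicate 2, and *his-42* had a second one in replicate 1 and *his-69* in replicate 2, at ranks from 18275 to 29708. The median percentile of the histone regions was 74.5 in the pooled list (9 regions), 37.7 in replicate 1 (8) and 66.8 in replicate 2 (7), where regions at other genes had medians of 50.4 in the pooled list, 50.7 in replicate 1 and 51.3 in replicate 2. The order of histone and other regions thus differed between the replicates. Of the 9 pooled regions none lay in the window of another gene that is not a histone gene.

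**Figure D4:**
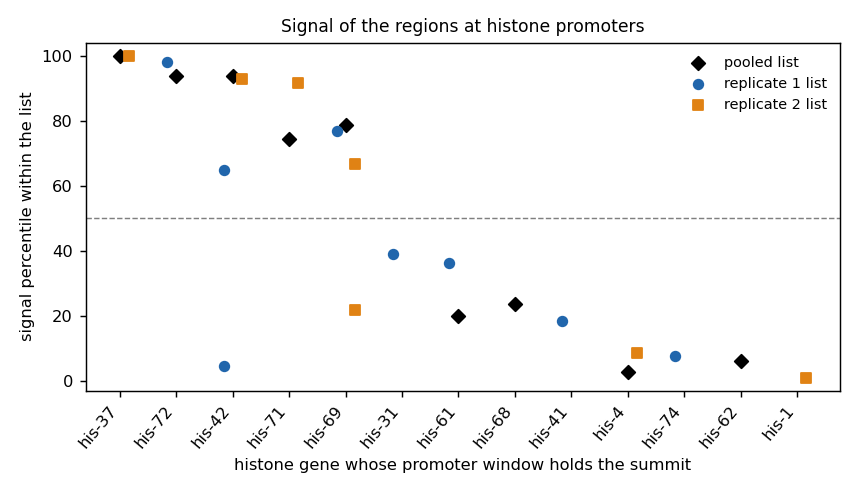
Signal percentile within its list (y axis, 0 to 100, with a dashed line at 50) of every region at a histone promoter, by gene (x axis) and list (black diamonds pooled, blue circles replicate 1, orange squares replicate 2); a region shared by 2 genes is drawn once, at 1 of them. Regions of *his-37*, *his-72*, *his-42*, *his-71* and *his-69* stand above 60, apart from a second region each at *his-42* and *his-69*, and those at the other 8 genes stand below 40.

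Most of the members lie in clusters. With neighbouring 5' ends at most 10000 bp apart and at least 3 genes, there were 11 clusters with 61 genes on II, IV and V, covering 58220 bp. Inside them lay 5 pooled summits, 6 of replicate 1 and 4 of replicate 2, where the mean density over the genome would place 17.4 in that length. No pooled summit lay in 6 of the 11 clusters, and replicates 1 and 2 left 5 and 8 empty. A pooled promoter region was found at 5 of the 61 genes in clusters and at 4 of the 11 outside them, against 33.8% of other genes. The 11 genes outside include all 5 H3.3-type genes and the H1 gene. By cluster, the median of unique words in the windows ran from 0%, as from *his-16* to *his-42* on II, to 99.9%, from *his-35* to *his-37* on V. The part of uniqueness in the counts inside and outside clusters was not tested.

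The largest cluster holds 13 genes in 10938 bp on II, from *his-16* to *his-42*, and had no summit inside it in any of the 3 full lists. The mean density over the genome would place 3.27 summits in that length, and its windows had a median of 0% unique words. On V, the cluster from *his-50* to *his-53* (6 genes) and that from *his-28* to *his-18* (8 genes) lay in a single stretch without a summit. This stretch spanned 90742 bp in the pooled list, with 8811783 and 8902525 as the summits at its ends, and was the third longest of 29994 distances between neighbouring summits, whose median was 2198.5 bp. It was 87914 bp long in replicate 1 and 97000 bp in replicate 2, the second longest in each. Only 6.31% of its words were unique, against 92.4% on chromosome V, and it held 27 protein-coding genes, of which 14 were histone genes. The longest distance between pooled summits, 220803 bp from 2344519 on V, had 1.83% unique words and held no member.

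The 31 divergent pairs (16 of H2A and H2B, 14 of H3 and H4, and 1 of H2A and H4) take in 62 of the 72 genes, with spacers of 227 to 368 bp and a median of 258 bp. The 31 spacers had 21 distinct sequences, and 16 of the 31 pairs have a spacer that recurs exactly at another pair, as the printed *his-50* spacer does. A pooled summit lay in 1 spacer, that of *his-61* and *his-62*, and no summit of either replicate lay in any. The spacers of the 29 pairs in clusters make up 13.3% of the cluster length and held 1 of the 5 pooled summits there, and the counts are too few to show a preference either way. In V cluster 1 a region from 8534013 to 8534356, between the 3' ends of *his-7* and *his-6*, ranked 7979 in the pooled list and 5771 in replicate 1. It was in no promoter window, and replicate 2 had no summit inside this cluster. Within a gene record the pooled list had a summit at 1 histone gene, 1.39% against 48.3% of other genes, with a median record of 384 bp for histone genes and 2033 bp for other genes, and the replicate lists at 3 each, 4.17% against 49.5% in replicate 1 and 47.8% in replicate 2. The gene in the pooled list was *his-57*, an H2A gene whose longest annotated transcript runs well past the end of its shortest. That region lay 880 bp from the 5' end and ranked 17100 in the pooled list, 29774 in replicate 1 and 27043 in replicate 2. Per length of gene record, histone genes had 3.29 pooled summits per 100 kb and other genes 27.9, with 9.87 for histone genes and 28.7 for other genes in replicate 1 and 9.87 for histone genes and 27.7 for other genes in replicate 2. These rest on 1, 3 and 3 summits in 30.4 kb of histone gene sequence. The gene records differed in uniqueness as the windows did, with a median of 0.702% unique words in histone records and 100% in other records.

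**Figure D5:**
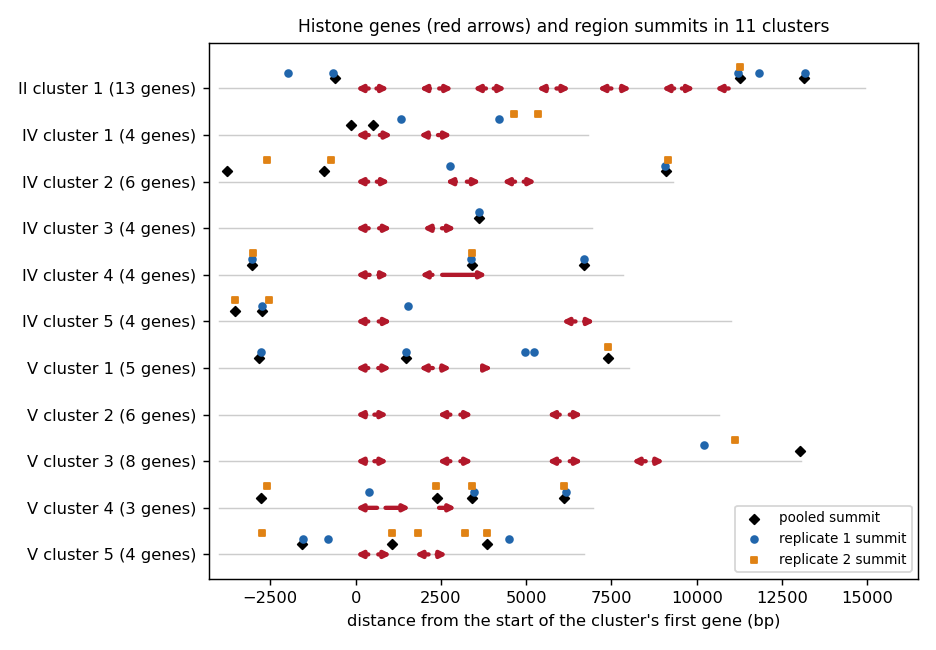
Map to scale of the 11 clusters (rows), with histone genes as red arrows that point in the direction of transcription and summits of the pooled list (black diamonds), replicate 1 (blue circles) and replicate 2 (orange squares) above them; the x axis is the distance in bp from the start of the first gene, with 4000 bp of flank on each side. The 13-gene cluster on II, IV cluster 3 and V clusters 2 and 3 have no summit among their genes.

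Sequence patterns of known factors were looked for in the windows on both strands, as a description. TGATNNAT was present in 29 of 72 histone windows, 40.3%, and in 64.1% of other windows. TAATTA, a homeodomain core site, was present in 26.4% of histone windows and 47.4% of other windows. TATAAA was in 90.3% of histone and 79.97% of other windows, GAGAGA, a short GA repeat, in 56.9% of histone and 50.9% of other windows, and CAGCTG, an E-box, in 40.3% of histone and 20.8% of other windows. These windows differ in GC content as given above. Windows of paired histone genes overlap and many are copies, so the same sequence was counted more than once among the 72. Within 100 bp of the 9 pooled summits at histone genes, TATAAA was present at 4, TGATNNAT at 2 (*his-68* and *his-69*) and the other 3 patterns at 0, where the shares of all pooled regions were 23.9, 16.9, 10.7 (TAATTA), 10.5 (GAGAGA) and 3.58% (CAGCTG).

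Other genes of the histone pathway, with windows of a median 100% unique words, had promoter regions of any rank in the 3 full lists at about the rate of all genes. The 32 listed genes are for variant and linker histones, histone chaperones, message processing and histone modification. Of these, 12 had a pooled promoter region, 37.5% against 33.8% of the 19901 comparison genes. In each replicate list it was again 12, against 33.1% of the comparison genes in replicate 1 and 33.8% in replicate 2. The same region was in both replicate lists at 4 of the 32, against 10.7% of the comparison genes. A region among the 1000 highest of the pooled list lay at 3 of the 32, against 1.7% of the comparison genes. These 3, a count of few genes, were *lin-53*, *met-2* and *chaf-2*. A thresholded peak lay at 1 of the 32 (3.1% against 0.447% of the comparison genes), *lin-53*, which encodes the histone-binding chaperone of the RbAp46 and RbAp48 family. It ranked 42 in the pooled list with a relative signal of 3.33, 176 in replicate 1 with 2.21 and 38 in replicate 2 with 3.49, 233 bp upstream of the gene in all of them. The histone H3 lysine methyltransferase gene *met-2* ranked 244, 4801 in replicate 1 and 362 in replicate 2. The chromatin assembly factor gene *chaf-2* ranked 282, 8245 in replicate 1 and 206 in replicate 2. The H2A.Z gene *htz-1*, a variant outside the his- names, had a region at rank 1904 in the pooled list and 752 in replicate 1, and none in replicate 2. No region was found at *cdl-1*, which encodes the protein that binds the histone stem-loop, in the pooled list.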

How the data were processed

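LIN-39 ChIP-seq regions were analysed from 4 deposited lists on ce11, 1 for each of 2 biological replicates, 1 pooled and 1 thresholded. Per the labels the library size range was 150 to 350 bp. Per the deposited text descriptions, both replicates were called against 1 control file and the thresholded list was made by irreproducible discovery rate. The sources used here name no aligner, no caller and no software version. The deposited signal of a region was used as rank, percentile and ratio to its list's median, since its size is not comparable between lists. The deposited q column reached below 0 and was treated as a score. Regions on ce10 were not used here, and no coordinates were converted.

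Genes came from Ensembl release 115, and names of the 72 members from RefSeq by gene ID, since Ensembl gives them 50 distinct symbols (a copy can carry the symbol of its twin). Classes were checked against RefSeq product names. Uniqueness was the share of 50-base words found once in the 6 nuclear chromosomes. Intervals are 95% Wilson intervals, for counting error over genes only. No test was run: there was 1 group. The members, lists and splits were chosen with earlier results of these data known. Genes named are those with a thresholded peak or a region among the 1000 highest, the best of each class, *his-24*, the H3.3-type genes, and those with the same region in both replicates; further names were picked once their values had been seen. Window assignment was tested on simulated data, where 200 of 200 planted regions were recovered. Alternatives varied the window, the overlap rule, the 5' end, the number of regions, the replicates, the matching distance and the cluster gap. The software was Python 3.11.15 with numpy 2.4.6 and pandas 2.3.3, and for intervals scipy 1.17.1, and for plots matplotlib 3.10.9.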

Additional observations from a re-analysis of the deposited data

How the results depend on the processing

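The number of histone genes with a pooled promoter region was 9. It was 5 with a window of 500 bp upstream to 100 bp downstream (6.94% against 19.1% of other genes) and 24 with 2000 bp upstream (33.3% against 51.5%). With the 5000 highest regions it was 3 (4.17% against 6.78%) and with the 1000 highest 1 (1.39% against 1.7%). Leaving out 1 replicate meant using the list of the other, so the counts of 6 and 8 repeat those given above. In each of these the histone share was the lower one. At the 5000 and 1000 highest, however, its Wilson interval included the share of other genes, so a lower share was not shown there. The histone share was also lower with overlap in place of the summit (12 genes, 16.7%) and with the 5' end of any transcript (9, 12.5% against 37.4%). It was not lower in the pooled list with windows over 90% unique (36.8%, Wilson interval 19.1 to 58.96%, against 36.0%). With such windows it was 36.8% against 35.2% in replicate 1, but lower in replicate 2, 15.8% against 36.2%. In the thresholded list the histone share over all windows was the higher one (1.39% against 0.447%), with an interval that included the share of other genes. All 6 chromosomes carry members, so a restriction to such chromosomes tested nothing. Distinct regions, 9, became 4 and 21 with the shorter and longer windows. The lists of replicates 1 and 2 alone had 8 and 7 distinct regions with median percentiles of 37.7 and 66.8, as given above, against 74.5 in the pooled list. The thresholded count of 1 was 0 with as many of the highest regions of replicate 1, where the share of other genes was 0.357%. Genes with the same region in both replicates were 1 and not 2 with summits within 100 bp or 50 bp, where *his-69* was lost. That is 1.39% of histone genes, against 7.84% of other genes at 100 bp and 5.39% at 50 bp. Gene records with a region were 5 and not 1 with overlap of the interval (6.94% against 54.6% of other genes). Clusters were 10 with gaps of 5000 or 20000 bp. The causes were not tested. No paired analysis was possible because both replicates belong to the same group. Depth is unknown, and the replicates share 1 control file.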
